A study of Mus musculus with 21 samples.

Results

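The step from the 1-cell to the 2-cell mouse embryo was followed gene by gene in 4 of the 14 short-read libraries of the series, which are the 2 labelled 1-cell and the 2 labelled 2-cell. With the long-read pool of each stage, these make 6 of its 21 samples. Every embryo came from a cross of DBA/2J males with C57/BL6J females, as the sample names give the strains (the collection protocol writes DBA/2N), and the females were 3 to 5 weeks old and superovulated with 7.5 IU of pregnant mare serum gonadotropin and 7.5 IU of human chorionic gonadotropin (hCG). The embryos were flushed from the oviduct, cultured in KSOM medium and lysed at 24 to 26 h post hCG as 1-cell embryos and at 46 to 48 h as 2-cell embryos. The 1-cell and 2-cell groups share this hormone treatment and culture. Other libraries of the series are set beside them. The oocytes came from C57/BL6J females of the same age and hormone treatment at 20 h post hCG, and the sperm from DBA/2J males. The later embryos were of the same cross, at 54 to 58 h (4-cell), 68 to 70 h (8-cell) and 94 to 96 h (blastocyst). A library was made from the amplified cDNA (Smart-seq2) of a pool of many embryos, and the long-read pool of a stage mixed the cDNA of the same batches that gave the short-read libraries, so it is no independent sample. Because each library is a bulk of whole embryos and TPM, the unit of the deposited levels, is a share of a library, fewer transcripts per cell and fewer cells of a kind cannot be told apart, and a change in the total RNA of an embryo is not seen.

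The newly fertilized mouse egg lives on RNA and protein that the growing oocyte stored, and it transcribes little of its own genome. Maternal RNA is then removed through shortening of the poly(A) tail and decay, and the embryonic genome is switched on in a minor wave followed by the major wave of zygotic genome activation (ZGA) at the 2-cell stage. Genes for ribosomes, RNA processing and the cell cycle are known parts of the major wave, and families such as Zscan4 and Usp17l are known for a short burst of expression in 2-cell embryos.

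Gene levels were the summed TPM of the merged long-read transcripts that overlap a GENCODE vM21 gene on the same strand of mm10. Of 22612 merged transcripts 18333 were assigned, to 10917 genes, of which 10000 were tested because 2 or more of the 12 libraries from oocyte to blastocyst held them at 1 TPM or above. A change is the difference of the stage means of log2(TPM + 1), given ± its standard error (SE), with 2 libraries a stage, and it understates the change of genes with low TPM. Pairs of values below are in the order library 1 and library 2. A gene passed the test when its limma p-value, adjusted by Benjamini-Hochberg over the 10000 genes, was under 0.05 in a fit that shares 1 spread over 6 stages. A fit with the spread weighted by stage is given beside it, and "both fits" means that a gene passed in each. On simulated data the fit with 1 spread called unchanged genes more often than its threshold allows, and the weighted fit did not. The study collected 2 batches of embryos a stage and sequenced cDNA of each. The p-values therefore rest on the spread between batches of pooled embryos, estimated over all 6 stages. They do not measure the spread of the 1-cell and 2-cell stages alone. The spread was largest at the 2-cell stage, and the fit with 1 spread takes it as equal at all stages.

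The 2 libraries of the 2-cell stage stood further apart than those of the 1-cell and 4-cell stages. Over the 10000 genes the median SD of log2(TPM + 1) was 1.04 for the 2-cell libraries, 0.47 for the 1-cell libraries and 0.19 for the 4-cell libraries, and the correlation between libraries across genes, which are not independent replicates, was 0.68, 0.93 and 0.98. The gene-wise difference of 2-cell library 2 from library 1 had a median of 0.98, 20 genes were above 50 TPM in library 1 and under 5 TPM in library 2, and 135 were so in the opposite way. Across genes 2-cell library 1 correlated with the sperm libraries at 0.45 and 0.50, 2-cell library 2 at 0.20 and 0.20 and the 1-cell libraries at 0.18 to 0.27. Later embryos also correlated with sperm, at 0.28 to 0.35 (4-cell), 0.36 to 0.45 (8-cell) and 0.36 to 0.59 (blastocyst). The values of 2-cell library 1 lay within the range of the blastocyst libraries. They lay above those of 2-cell library 2, the 1-cell libraries and the 4-cell libraries. The cause of this difference was not tested. Transcripts without an annotated gene held 19.6% and 18.1% of the TPM before cleavage, against 25.4% and 35.0% after it. Results are therefore given for each 2-cell library, and calls that depend on a library are named with it.

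Of the markers of other cells that a pool could hold, many had no merged transcript, and most of the measured ones were low. A marker without a merged transcript can have no TPM here, so its absence says nothing of such cells. Amhr2, Tssk6 and Hba-a1 were not low in at least 1 of the 2-cell libraries. Of 17 cumulus and granulosa cell markers 2 were in the merged transcripts, and their summed level was 0.646 and 0.209 TPM at the 1-cell stage and 47.2 and 62.4 TPM at the 2-cell stage. Most of that sum was Amhr2, the receptor of anti-Müllerian hormone, at 44.9 and 49.9 TPM in the 2-cell and 99.2 and 107 TPM in the 4-cell libraries, while the follicle markers Foxl2, Amh, Fshr and Cyp19a1 had no merged transcript. Gja1, the gap junction protein connexin 43, was the other one measured, at 2.31 and 12.5 TPM in the 2-cell and 169 and 161 TPM in the 4-cell libraries, and both passed as higher, Gja1 not without 1-cell library 1 (0.111), 1-cell library 2 (0.185) or 2-cell library 2 (0.244) (limma adjusted p in brackets). The 16 sperm markers, of which 8 were tested and 3 passed as higher, summed to 45.5 and 21.1 TPM at the 1-cell and 157 and 76.9 TPM at the 2-cell stage. Of that sum 137 and 3.92 TPM were Tssk6, a testis-specific kinase, whereas the protamine gene Prm1 was at 0 and 4.37 TPM (limma adjusted p = 0.321, and 0.012 without 2-cell library 1) and Akap4 and Smcp were at 0 in both 2-cell libraries. The 3 that passed were Tssk6, Oaz3 and Ldhc. With a library left out, the test was not passed by Tssk6 without 1-cell library 1 (0.0588) or 1-cell library 2 (0.0703) or by Oaz3 without 1-cell library 2 (0.0999), with the limma adjusted p in brackets. Of 7 oviduct markers 3 were measured, with a sum of 0.730 and 0.185 TPM before and 5.93 and 4.16 TPM after cleavage, and Ovgp1 passed as higher, though not without 1-cell library 1 (0.0744) or 1-cell library 2 (0.147) (limma adjusted p in brackets). The 8 blood and immune markers summed to 2.39 and 3.26 TPM and then to 22.7 and 379.9 TPM, mostly the alpha globin gene Hba-a1 at 18.6 and 368 TPM, with the leukocyte marker Ptprc at 0 and 0.0278 TPM. Hba-a1 and Lyz2 passed as higher in that list. The change of Hba-a1, 5.50 with both 2-cell libraries, was 3.38 without 2-cell library 2, and Lyz2 did not pass without 1-cell library 1 (0.127), 1-cell library 2 (0.145) or 2-cell library 2 (0.132) (limma adjusted p in brackets). By list, 100% of 2 tested cumulus and granulosa, 37.5% of 8 sperm, 33.3% of 3 oviduct and 50% of 4 blood and immune markers passed as higher. Among all genes tested 26.1% did. What part these cells have in the results below was not tested.

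At the 2-cell stage 2607 genes, 26.1% of the 10000 tested, were higher than at the 1-cell stage and 620 (6.20%) were lower. With the spread weighted by stage 1370 (13.7%) were higher and 161 (1.61%) lower, all of them among the former, so the counts in both fits were again 13.7% and 1.61% of the genes tested. Both 2-cell libraries lay above both 1-cell libraries in 42.7% of the genes and below them in 15.4%. The median change of all genes was 0.72. It was -0.12 after quantile normalization and 0.07 after median-ratio scaling, and with it the split of the calls moved: 15.9% higher and 17.6% lower after quantile normalization, 19.8% higher and 15.5% lower after median-ratio scaling. The median change of a list is therefore given with its difference from 0.72 and with the medians under the other scalings, and its counts are given beside the shares of all genes. Without a library the counts ran from 1362 higher (without 1-cell library 2) to 3225 (without 2-cell library 1), and from 231 lower (without 1-cell library 1) to 1375 (without 2-cell library 2).

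**Figure D1:**
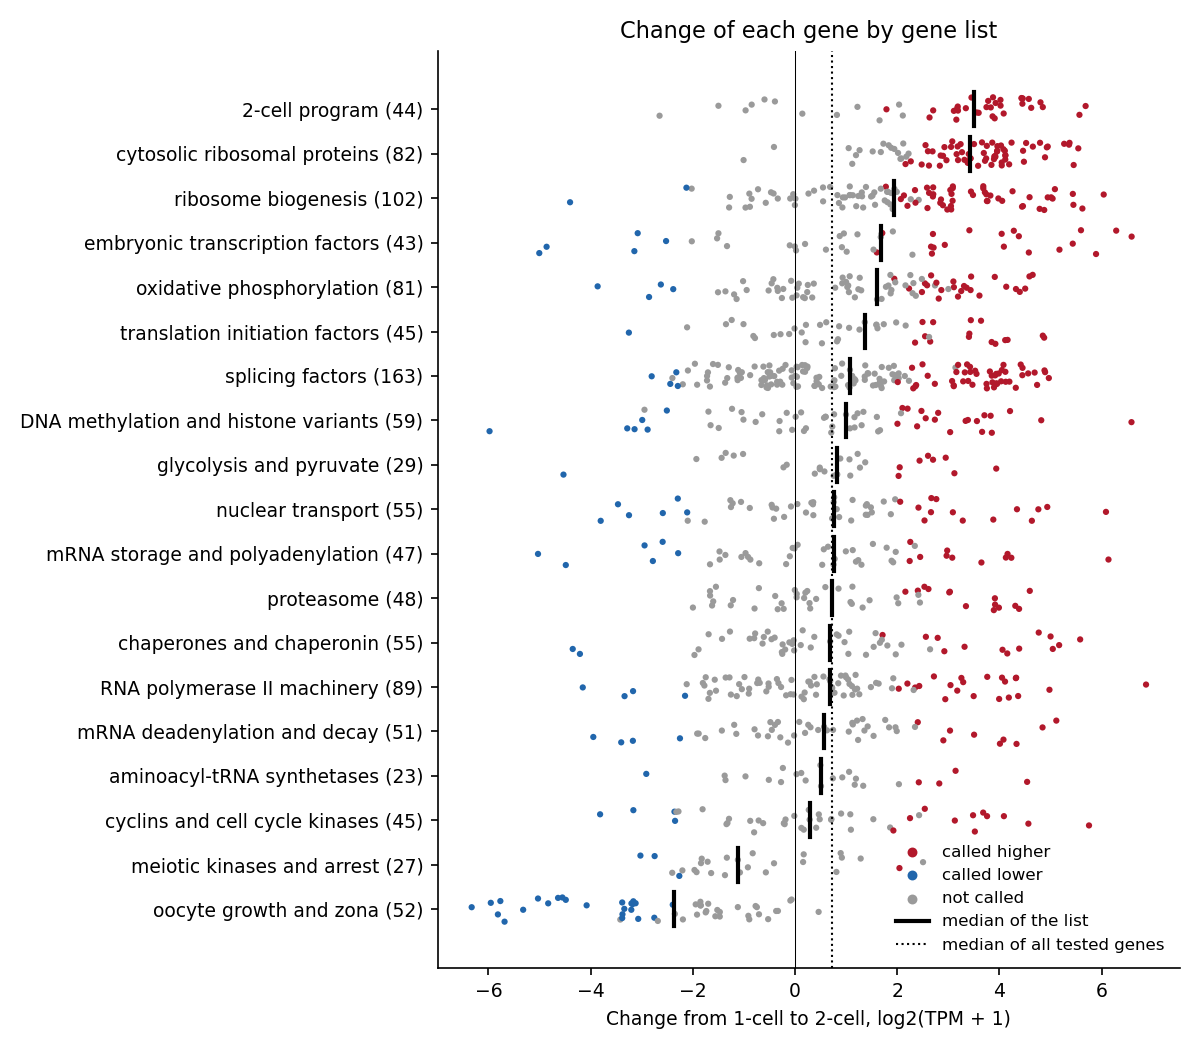
Change of each tested gene from the 1-cell to the 2-cell stage, log2(TPM + 1), by gene list, with the number of tested genes of the list in brackets. Points are genes, coloured by whether they passed the limma test as higher or lower. Thick bars are list medians and the dotted line is the median of all 10000 tested genes (0.72). The 2-cell program and the cytosolic ribosomal proteins have the highest medians (3.50 and 3.42) and the oocyte growth and zona list the lowest (-2.37).

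The genes that rose in both fits were low before cleavage. Of these 1370 genes, 1189 were protein coding and 96 were pseudogenes, and 680 were under 1 TPM in both 1-cell libraries. Their median level was 0.308 and 0.321 TPM in the oocyte libraries, 0.822 and 0.544 TPM in the 1-cell libraries and 33.3 and 39.1 TPM in the 2-cell libraries. In the 4-cell libraries it was 47.0 and 45.3 TPM. Both 4-cell libraries lay above both oocyte libraries in 1356 of the 1370 (99.0%), against 58.4% of all tested genes. The oocyte and 4-cell libraries do not enter the change. They do enter the filter and the spread of both fits, so this is no independent check of the calls. Among the long reads, 848 of the 1370 (61.9%) had a transcript in the 2-cell pool and none in the 1-cell pool, against 24.2% of all tested genes.

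Of the 15 largest rises 6 were in protein-coding genes, 6 in pseudogenes and 3 in long noncoding RNAs. The coding genes differed in how evenly the 2-cell libraries shared the rise. Selenos, which encodes a selenoprotein of the endoplasmic reticulum that takes part in the disposal of misfolded proteins, was at 1.81 and 0.766 TPM in the 1-cell and 537 and 709 TPM in the 2-cell libraries. It rose by 8.12 ± 0.68 (SE, limma adjusted p = 7.01e-05) and stood at 1659 and 1571 TPM at the 4-cell stage. Pdxk, the kinase that makes pyridoxal phosphate from vitamin B6, went from 1.15 and 0.956 TPM to 625 and 265 TPM, a rise of 7.63 ± 0.67 (limma adjusted p = 7.01e-05). For both genes the lowest 2-cell value was more than 100 times the highest 1-cell value, and the 2 libraries of a stage differed far less than that.

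Zfp622, a zinc finger protein that acts in the maturation of the large ribosomal subunit, was at 0.277 and 0.543 TPM and then at 2210.1 and 111 TPM, and rose by 8.47 ± 1.12 (limma adjusted p = 0.000193). Exoc3l2, related to a subunit of the exocyst, went from 0.276 and 0.0264 TPM to 1937 and 69.1 TPM. Bri3bp, which encodes a membrane protein that binds BRI3, went from 0.523 and 0.406 TPM to 1268 and 81.5 TPM. In each of these genes 2-cell library 1 was more than 10 times as high as library 2, yet the lower of the 2 was still far above both 1-cell libraries. Rpp25, a subunit of ribonuclease P and ribonuclease MRP, was also higher in library 1, with 1.00 and 1.12 TPM before and 1584 and 169.7 TPM after cleavage and 62.6 and 41.1 TPM at the 4-cell stage. The opposite order was seen in the long noncoding RNA B020004C17Rik, at 0.849 and 0.0716 TPM before and 205 and 716 TPM after cleavage.

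Of the 15 largest rises, 7 had a promoter window in the RefSeq table (GRCm38.p6, 250 bases before to 50 after the start), as did 7488 of the 10000 tested genes. The windows of the first 4 of these, in order of the size of the rise, are shown. Their genes were under 2 TPM in both 1-cell libraries and above 60 TPM in each 2-cell library. Capitals mark matches, on either strand, to the GC box GGGCGG, the CCAAT box CCAAT, the TATA box TATAAA, the E-box CACGTG and the core CCGGAAG bound by ETS factors, and the search covered 3 more motifs that are given with the shares. The windows are chr15:25984116-25984415 (Zfp622), chr7:19463037-19463336 (Exoc3l2), chr7:66079399-66079698 (Selenos) and chr14:57014884-57015183 (B020004C17Rik), all on the plus strand, 5′ to 3′.
Zfp622: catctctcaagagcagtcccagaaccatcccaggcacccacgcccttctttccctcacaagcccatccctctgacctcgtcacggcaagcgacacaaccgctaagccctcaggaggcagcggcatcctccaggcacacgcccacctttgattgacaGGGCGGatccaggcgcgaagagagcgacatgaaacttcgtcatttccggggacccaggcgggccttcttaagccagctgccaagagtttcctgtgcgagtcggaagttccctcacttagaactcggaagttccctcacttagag
Exoc3l2: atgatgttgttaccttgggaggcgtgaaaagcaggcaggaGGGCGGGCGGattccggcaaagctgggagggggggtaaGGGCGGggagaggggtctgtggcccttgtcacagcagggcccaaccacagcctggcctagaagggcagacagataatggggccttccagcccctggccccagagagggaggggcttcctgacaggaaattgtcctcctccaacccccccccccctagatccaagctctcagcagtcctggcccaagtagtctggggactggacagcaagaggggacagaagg
Selenos: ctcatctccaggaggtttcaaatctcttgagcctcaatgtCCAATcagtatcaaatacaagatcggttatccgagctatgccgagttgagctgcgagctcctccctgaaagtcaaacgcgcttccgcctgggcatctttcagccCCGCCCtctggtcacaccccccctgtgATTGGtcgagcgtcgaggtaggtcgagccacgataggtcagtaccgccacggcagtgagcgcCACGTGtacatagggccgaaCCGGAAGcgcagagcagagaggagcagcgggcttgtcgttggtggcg
B020004C17Rik: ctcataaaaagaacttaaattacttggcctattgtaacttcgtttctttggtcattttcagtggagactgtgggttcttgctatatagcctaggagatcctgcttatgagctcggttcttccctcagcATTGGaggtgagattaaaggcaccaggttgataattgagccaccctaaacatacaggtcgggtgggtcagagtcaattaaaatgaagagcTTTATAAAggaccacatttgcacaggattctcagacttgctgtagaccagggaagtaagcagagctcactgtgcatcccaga
The Selenos window held 1 GC box, 2 CCAAT boxes, 1 E-box and, at bases 4 to 10 after the start, 1 ETS core. Exoc3l2 held 3 matches to the GC box, 2 of which overlap, and Zfp622 held 1. The B020004C17Rik window differed from these in its GC content, 43.7% against 58.3% to 63.0%, and in 2 overlapping matches to the TATA box, 1 on each strand, the last base of which lies 25 bases before the start. It also held 1 CCAAT box.

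Over all windows the letters of the GC box were found in 63.4% of the 1155 windows of genes that rose in both fits, in 40.5% of the 148 windows of genes that fell in both fits, in 59.9% of the 9464 windows of tested genes and in 35.7% of the 32851 windows in the table. The ETS core was in 19.1%, 10.1%, 18.5% and 8.86% of the same sets, and the E-box in 12.4%, 4.73%, 10.1% and 7.15%. TATAAA was in 6.41%, 8.11%, 7.81% and 13.6% and CCAAT in 37.2%, 38.5%, 39.0% and 37.4%. GGATTA, the core of K50 homeodomain sites such as those of OBOX proteins, was in 8.48%, 4.73%, 6.20% and 7.06%. The site TCAAGGNCA of the nuclear receptor NR5A2 was in 1.90%, 0.68%, 1.27% and 1.62%, and AAGATGGC, a site of YY1, in 4.42%, 2.03%, 4.61% and 2.75%. Against all tested genes, the windows of genes that rose held the GC box, the E-box, GGATTA and TCAAGGNCA in larger shares and TATAAA in a smaller share. The shares of the ETS core, CCAAT and AAGATGGC were nearly the same. These differences were not tested. The median GC content was 60.3% for the genes that rose and 60.0% for all tested genes, while it was 55.7% for the genes that fell. These matches describe letters in a window and no binding was measured.

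A row of pseudogenes on chromosome 11 gave 5 of the 15 largest rises. Between chr11:60560924 and chr11:60693075, on the minus strand between the coding genes Alkbh5 and Llgl1, 12 annotated pseudogenes were tested and all 12 rose in both fits. Among all genes tested 13.7% did. The row was picked after the values were seen, because it holds 5 of the largest rises. Copies that can share reads are not separate observations. Gm12621 was at 1.06 and 0.724 TPM in the 1-cell and 1175 and 862 TPM in the 2-cell libraries and rose by 9.06 ± 0.95 (limma adjusted p = 7.01e-05). Gm12627 and Gm12613 were listed at 0 in the oocyte and 1-cell libraries and at 433 and 417 TPM and 153 and 181 TPM in the 2-cell libraries, respectively. The coding neighbours did not pass the test: Alkbh5 was at 56.9 and 66.7 TPM and then 178 and 37.4 TPM, and Llgl1 at 24.6 and 9.53 TPM and then 6.93 and 13.1 TPM (limma adjusted p = 0.749 and 0.555). The copies of 382 bases are 98.2% to 99.5% identical to Gm12621, so the split of their reads between copies is uncertain. Gm12617 is 86.3% identical over 366 bases, and Gm12626, Gm12612 and Gm12620 are longer pseudogenes in the same row. To show how little sets them apart, bases 250 to 369 of 4 copies follow, from the GRCm38 genome in the direction of transcription, with capitals where a copy differs from Gm12621.
Gm12621: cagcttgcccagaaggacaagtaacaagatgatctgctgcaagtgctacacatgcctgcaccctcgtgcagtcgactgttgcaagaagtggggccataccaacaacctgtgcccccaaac
Gm12627: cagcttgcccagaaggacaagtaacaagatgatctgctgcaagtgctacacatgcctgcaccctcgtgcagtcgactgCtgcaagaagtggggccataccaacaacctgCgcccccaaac
Gm12625: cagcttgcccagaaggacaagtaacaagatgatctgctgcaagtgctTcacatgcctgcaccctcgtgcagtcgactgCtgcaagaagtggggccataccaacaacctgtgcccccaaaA
Gm12614: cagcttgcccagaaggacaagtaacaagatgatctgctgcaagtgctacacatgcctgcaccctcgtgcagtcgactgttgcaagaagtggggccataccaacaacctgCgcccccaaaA
Over their 382 bases the copies differ from Gm12621 at 2 bases in Gm12627 and at 3 bases in Gm12625 and in Gm12614.

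Gm48799, a long noncoding RNA on chromosome 13, was at 0 and 0.187 TPM before and 162 and 444 TPM after cleavage. At least 500 of its 3661 bases were shared at 95% identity or more with 21 annotated genes, itself included, of which 7 on 6 chromosomes were tested. These were chosen after the values were seen. Gm48799, Gm48764, Gm47808, Gm47739, Gm49015 and AC136710.2 rose in both fits, each with under 0.2 TPM in the oocyte and 1-cell libraries except AC136710.2, at 0.249 and 0 TPM in the oocyte. Among all genes tested 13.7% rose in both fits. Tmem72, the coding gene among the 7, went the other way, from 103 and 10.4 TPM to 1.08 and 6.04 TPM, and passed as lower in the fit with 1 spread (limma adjusted p = 0.0188). Reads can be shared among these copies. Gm5612, from 1.45 and 0.785 TPM to 287 and 831 TPM, has near-identical copies too, among them Map1lc3b, and its transcript overlaps Ubtfl1. Gm49575, with no such copy, went from 1.36 and 0 TPM to 338 and 457 TPM and was at 74.2 and 75.2 TPM at the 4-cell stage.

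**Figure D2:**
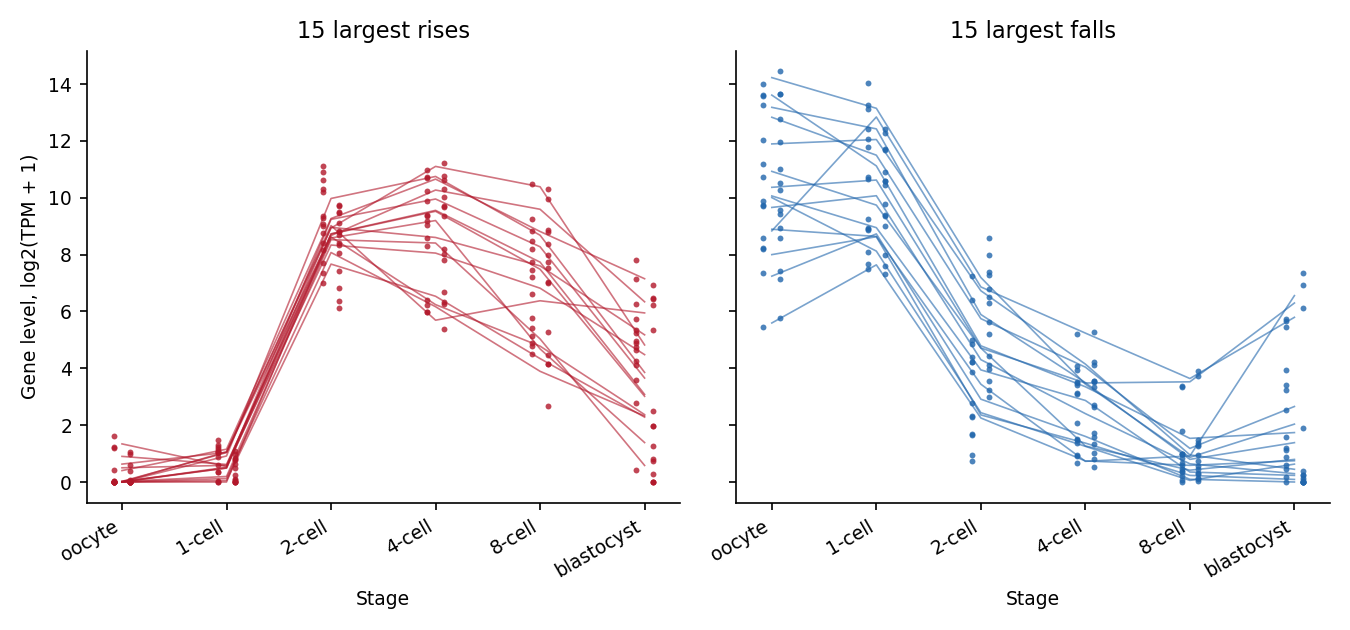
Levels of the 15 largest rises (left) and the 15 largest falls (right) in the 12 libraries from oocyte to blastocyst, log2(TPM + 1). Points are libraries and lines join stage means. Every gene on the left is below 2 at the oocyte and 1-cell stages and above 7 at the 2-cell stage on average, and on the right each gene drops between the 1-cell and the 2-cell stage and stays low at the 4-cell stage.

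Genes known for a burst at the 2-cell stage formed a list of 53, of which 44 were tested. Of these 32 rose, 26 of them in both fits, none fell and 12 did not pass (72.7% higher and none lower, against 26.1% and 6.20% of all genes). The median change of the list was 3.50, which is 2.79 above that of all genes, and 2.72 after quantile normalization and 3.00 after median-ratio scaling. The calls were 26 higher and 2 lower after quantile normalization and 29 higher and 2 lower after median-ratio scaling, where Klf17 and AA792892 were the lower genes. The summed level was 677 and 784 TPM in the 1-cell, 535 and 2810 TPM in the 2-cell and 1367 and 1449 TPM in the 4-cell libraries, so that 2-cell library 2 lay above both 1-cell libraries and library 1 below both. Without 2-cell library 1, 38 of the 44 passed as higher, and without 1-cell library 2, 17 did. Without 2-cell library 2, 23 passed as higher and Tcstv1, Duxf3, Arg2 and AA792892 as lower.

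Zscan4d belongs to a family of zinc finger proteins linked to telomere lengthening. It was at 0.622 and 0.614 TPM in the 1-cell and 4.65 and 66.7 TPM in the 2-cell libraries, 3.07 and 2.23 TPM at the 4-cell stage, and rose by 3.59 ± 0.86 (limma adjusted p = 0.00631). Without 2-cell library 2 the rise was 1.80. The 2-cell values did not overlap the 1-cell values, but library 2 was more than 10 times as high as library 1, and the call was lost without 1-cell library 2 (limma adjusted p = 0.0529). Its reads can be shared with Zscan4a, Zscan4c and 3 pseudogenes of the family, so its own level is uncertain. Zscan4f, at 0.734 and 0.161 TPM before and 4.77 and 167 TPM after cleavage, also passed in both fits.

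Usp17lb and Usp17lc, deubiquitinating enzymes of the Usp17-like family, went from 0.407 and 0.146 TPM to 24.5 and 167 TPM and from 0.187 and 0.241 TPM to 5.96 and 44.1 TPM. They rose by 5.69 ± 0.96 and 3.87 ± 0.79 (limma adjusted p = 0.000729 and 0.00235). AF067063, a gene without an assigned role, went from 0.0684 and 0 TPM to 21.7 and 105 TPM and Tdpoz4, a TRAF-domain and POZ-domain protein, from 0 and 0.0373 TPM to 3.23 and 17.3 TPM. Eif1a, a translation initiation factor gene known for its expression in cleaving embryos, went from 0.399 and 0.315 TPM to 17.8 and 80.2 TPM and on to 179.5 and 138 TPM. All 5 rose in both fits and were higher in 2-cell library 2 than in library 1. Without library 2 the rises of Usp17lc and Tdpoz4 were 2.52 and 2.05, against 3.87 and 3.11 with it. Usp17lc, AF067063 and Tdpoz4 each have a near-identical copy that can share their reads.

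Some members of the list did not pass. Zfp352, a zinc finger gene of retrotransposed origin, was at 2.19 and 11.1 TPM and then 4.17 and 73.3 TPM, so that the groups overlapped (limma adjusted p = 0.272, and 0.00907 without 2-cell library 1). Duxf3, the double homeobox gene that can switch on this program, was at 1.17 and 1.46 TPM at the 1-cell stage and 0 and 5.53 TPM at the 2-cell stage. It is named here after its values were seen, and it did not pass with all libraries (limma adjusted p = 0.894). Both 2-cell libraries lay below both 1-cell libraries in Sp110, AA792892, Rex2 and Klf17, none of which passed with all libraries.

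Among 43 tested transcription factors of the embryo 19 rose and 5 fell, 13 and 3 of them in both fits (44.2% higher and 11.6% lower, against 26.1% and 6.20% of all genes). The median change was 1.68, which is 0.96 above that of all genes, and 0.45 after quantile normalization and 1.08 after median-ratio scaling. Leaving out a library gave 12 (without 1-cell library 2) to 22 (without 2-cell library 1) rises and 2 (without 1-cell library 1) to 6 (without 2-cell library 2) falls. Klf5, which is needed for the first lineages of the blastocyst, went from 0.399 and 0.242 TPM to 145 and 41.0 TPM and rose by 5.89 ± 0.71 (limma adjusted p = 0.000121). Obox6, a homeobox gene of the oocyte-specific Obox family, went from 1.08 and 0.107 TPM to 73.1 and 287 TPM and to 1210.4 and 1226 TPM at the 4-cell stage, a rise of 6.59 ± 0.86 by the 2-cell stage (limma adjusted p = 0.000179). Gabpa, the ETS factor that binds GGAA cores, went from 0.111 and 0.233 TPM to 66.8 and 122 TPM and rose by 6.29 ± 0.65 (limma adjusted p = 7.01e-05). These 3 rises held in each fit that left out a library.

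Other members of the Obox family went down while Obox6 went up. Obox2 was at 469.9 and 518 TPM and then 3.84 and 48.0 TPM, and Obox1 at 873 and 707 TPM and then 6.19 and 101 TPM, and both fell in both fits. Obox7, at 35.9 and 49.7 TPM before and 0.571 and 15.7 TPM after, also fell in both fits, and Obox5, from 683 and 608 TPM to 13.5 and 368 TPM, fell in the fit with 1 spread alone and not without 1-cell library 1 (0.159), 1-cell library 2 (0.148) or 2-cell library 1 (0.463) (limma adjusted p in brackets). Without 2-cell library 1 the changes of Obox1 and Obox2 were -2.95 and -3.34, against -4.86 and -5.01 with it. Obox1 and Obox2 overlap and are near-identical, so their reads may be split between them. Elf2 was the remaining factor that fell, in the fit with 1 spread. Tead4, which drives the trophectoderm program, went from 0.119 and 0.164 TPM to 6.55 and 6.28 TPM and rose in that fit, with 63.4 and 58.2 TPM at the 4-cell stage. Nr5a2, at 6.81 and 1.88 TPM and then 9.87 and 28.4 TPM, and Pou5f1, at 107 and 46.8 TPM and then 17.3 and 33.2 TPM, did not pass (limma adjusted p = 0.0781 and 0.148), though Nr5a2 did without 2-cell library 1 (limma adjusted p = 0.0267). The calls of the list were 13 higher and 8 lower after quantile normalization and 16 higher and 9 lower after median-ratio scaling. Pou5f1 was among the lower genes under both scalings (limma adjusted p = 0.0192 and 0.0167).

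Among the lists, the cytosolic ribosomal proteins held the largest number of genes that rose. Of the 82 cytosolic ribosomal protein genes, all of them tested, 64 rose, 41 in both fits, and none fell (78% higher and none lower, against 26.1% and 6.20% of all genes). Their median change was 3.42, which is 2.70 above that of all genes, and 2.96 after quantile normalization and 2.68 after median-ratio scaling. The median level went from 20.3 and 5.80 TPM at the 1-cell to 105 and 121 TPM at the 2-cell stage, and the sum over the 82 genes from 4061 and 1671 TPM to 17097 and 17522 TPM. At the 4-cell stage the sum was 79077 and 80452 TPM. Unlike the 2-cell program, the 2 libraries of the 2-cell stage held nearly the same sum, and without either of them 62 and 60 genes passed. The exception is 1-cell library 2, without which 30 did.

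Rps19, a small-subunit protein, was at 7.80 and 5.86 TPM and then 359 and 364 TPM and rose by 5.55 ± 0.71 (limma adjusted p = 0.000169). Rpl41, the shortest ribosomal protein, was the most abundant of those named, at 61.5 and 24.1 TPM before, 1204 and 2504 TPM after and 7669.8 and 9599 TPM at the 4-cell stage. Rpl22 went from 2.71 and 0.742 TPM to 126 and 86.3 TPM. In these 3 genes every 2-cell value was more than 10 times the highest 1-cell value of the same gene. Rps6, whose protein is phosphorylated downstream of mTOR, went from 6.21 and 1.19 TPM to 64.0 and 25.4 TPM and passed in both fits, but not without 1-cell library 2 (limma adjusted p = 0.0814). Rps23, from 3.36 and 0.650 TPM to 17.6 and 44.0 TPM, did the same (without 1-cell library 2, limma adjusted p = 0.0834).

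Genes that build ribosomes rose in part. Of 102 tested ribosome biogenesis genes 48 rose and Riok1 and Rsl1d1 fell, with 22 rises and the fall of Riok1 in both fits (47.1% higher and 1.96% lower, against 26.1% and 6.20% of all genes). The median change was 1.93, which is 1.21 above that of all genes, and 1.29 after quantile normalization and 1.16 after median-ratio scaling, and the calls were 33 higher and 5 lower after quantile normalization and 36 higher and 6 lower after median-ratio scaling. Leaving out a library, 22 (without 1-cell library 2) to 49 (without 2-cell library 1) rose and 1 (without 1-cell library 1 or 1-cell library 2 or 2-cell library 1) to 2 (without 2-cell library 2) fell. Nop16, a nucleolar protein of the large-subunit pathway, went from 0.282 and 0.620 TPM to 44.4 and 198 TPM and rose by 6.04 ± 0.77 (limma adjusted p = 0.000164). Rrs1, which brings the 5S particle to the precursor of the large subunit, went from 1.31 and 2.02 TPM to 556 and 29.6 TPM, and Nop9 from 0.991 and 1.49 TPM to 357 and 25.5 TPM, both far higher in 2-cell library 1. Without that library their rises were 3.53 and 3.57, against 5.63 and 5.45 with it. The abundant nucleolar proteins were already present in the 1-cell embryo and did not pass: Npm1 was at 421 and 138 TPM and then 65.4 and 259 TPM, and Ncl at 167 and 85.8 TPM and then 98.2 and 91.2 TPM. Fbl, the methyltransferase of box C/D particles, was at 22.5 and 18.3 TPM and then 73.2 and 47.2 TPM (limma adjusted p = 0.162). Riok1, a kinase of small-subunit maturation, went down from 606 and 313 TPM to 10.8 and 35.2 TPM. Rsl1d1, from 681 and 427 TPM to 78.4 and 192 TPM, did not pass without 1-cell library 1 (0.18), 1-cell library 2 (0.0809) or 2-cell library 1 (0.19) (limma adjusted p in brackets).

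Among 45 translation initiation factors 15 rose, 9 in both fits, and Eif4e3 fell in the fit with 1 spread (33.3% higher and 2.22% lower, against 26.1% and 6.20% of all genes, and 20% and none in both fits, against 13.7% and 1.61%). The median change was 1.37, which is 0.65 above that of all genes, and 0.68 after quantile normalization and 0.56 after median-ratio scaling. The calls were 10 higher and 2 lower after quantile normalization and 10 higher and 3 lower after median-ratio scaling, and 8 (without 1-cell library 2) to 16 (without 1-cell library 1 or 2-cell library 1) rose when a library was left out. Eif4ebp1, which holds the cap-binding protein eIF4E inactive, went from 5.13 and 4.58 TPM to 191 and 153 TPM and rose by 4.88 ± 0.75 (limma adjusted p = 0.000394). Eif2b5, a subunit of the exchange factor of eIF2, went from 0.726 and 1.51 TPM to 92.9 and 13.8 TPM. Eif4e itself was at 188 and 285 TPM and then 88.6 and 338 TPM and did not pass (limma adjusted p = 0.775). Its paralog Eif4e3 went down from 2494 and 1939.9 TPM to 106 and 498 TPM and to 45.0 and 33.8 TPM at the 4-cell stage. Its change was -3.25 with all libraries and -2.14 without 2-cell library 1. Of 23 aminoacyl-tRNA synthetase genes Aars, Mars, Yars and Aimp2 rose and Farsb fell, Aars alone in both fits (17.4% higher and 4.35% lower, against 26.1% and 6.20% of all genes). Farsb did not pass without 1-cell library 1 (0.108), 1-cell library 2 (0.0554) or 2-cell library 1 (0.128) (limma adjusted p in brackets), and the rise of Aars was 2.96 without 2-cell library 1, against 4.54 with it. The median change of that list was 0.51, which is 0.21 below that of all genes, and -0.29 after quantile normalization and -0.07 after median-ratio scaling.

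Splicing factors rose in a share close to that of all genes. Of 163 tested, 49 rose, 31 in both fits, and Prpf6, Magohb, Smn1 and Srpk2 fell in the fit with 1 spread (30.1% higher and 2.45% lower, against 26.1% and 6.20% of all genes, and 19% and none in both fits, against 13.7% and 1.61%). The median change was 1.07, which is 0.35 above that of all genes, and 0.26 after quantile normalization and 0.28 after median-ratio scaling, and the calls were 36 higher and 11 lower after quantile normalization and 37 higher and 16 lower after median-ratio scaling. When a library was left out 31 (without 1-cell library 2) to 48 (without 2-cell library 1 or 2-cell library 2) rose and 0 (without 1-cell library 1 or 1-cell library 2) to 8 (without 2-cell library 2) fell. With the limma adjusted p in brackets, Prpf6 did not pass without 1-cell library 1 (0.0582), 1-cell library 2 (0.063) or 2-cell library 1 (0.0766), Magohb without 1-cell library 1 (0.133), 1-cell library 2 (0.0933) or 2-cell library 1 (0.202) and Srpk2 without 1-cell library 1 (0.105), 1-cell library 2 (0.0687) or 2-cell library 1 (0.124). The largest rises were in Snrpc, which belongs to the U1 particle and went from 7.69 and 4.01 TPM to 119 and 355 TPM, and in Snrnp25 of the minor spliceosome, from 3 and 0.342 TPM to 23.5 and 193 TPM. They rose by 4.97 ± 0.75 and 4.90 ± 1.01 (limma adjusted p = 0.000364 and 0.00256). Alyref, an adaptor of mRNA export, went from 2 and 5.02 TPM to 323 and 47.6 TPM. The first 2 were higher in 2-cell library 2 and Alyref in library 1.

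Some genes are described here because the study names them. It picked Ddx20, Sf1, Pqbp1 and Zpr1 (the last 2 matched to names it spells Pqdb1 and Zqr1) for this step on these samples, so their direction is no independent evidence. Ddx20, an RNA helicase of the SMN complex, went from 2.98 and 7.44 TPM to 409 and 36.4 TPM and Zpr1, a zinc finger protein that binds SMN, from 5.33 and 8.99 TPM to 584 and 50.6 TPM, and both rose in both fits. Sf1, which binds the branch point, went from 11.4 and 9.35 TPM to 436 and 35.2 TPM and rose in the fit with 1 spread (limma adjusted p = 0.0165), though not without 1-cell library 1 (0.0673), 1-cell library 2 (0.0951) or 2-cell library 1 (0.14) (limma adjusted p in brackets). In these 3 genes 2-cell library 1 was more than 10 times as high as library 2, and the rises of Ddx20 and Zpr1, 4.42 and 4.45, were 2.69 and 2.70 without library 1. Pqbp1, from 14.1 and 1.83 TPM to 41.3 and 133 TPM, was higher in library 2 and passed in the fit with 1 spread, but not without 1-cell library 2 (limma adjusted p = 0.0925). Raly, Phf5a and Snrpd3, which it sets against the number of splicing events over all stages and not against this step, did not pass (limma adjusted p = 0.705, 0.307 and 0.186). In each the stages overlapped, as in Raly with 45.5 and 61.6 TPM before and 66.9 and 19.5 TPM after cleavage. Snrpd3 passed as lower after median-ratio scaling (limma adjusted p = 0.033) but not after quantile normalization (limma adjusted p = 0.0801).

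For Kdm4dl, Xiap, Ggnbp2, Ehbp1 and Rps23 the study names an isoform for the step, and for Sgk3 an isoform for another reason, whereas the values here sum all transcripts of the gene and say nothing of the isoform. Kdm4dl, a relative of the KDM4 histone demethylases, was at 0.450 and 0 TPM and then 3.56 and 37.2 TPM, with 8.96 and 9.95 TPM at the 4-cell stage. Summed over its transcripts it rose by 3.45 ± 0.78 in both fits (limma adjusted p = 0.00439 with 1 spread). The rise was 1.92 without 2-cell library 2, and the call was lost without 1-cell library 2. Sgk3, a kinase activated downstream of PI3K, went from 0.304 and 0.0739 TPM to 5.80 and 12.7 TPM and rose in both fits. Xiap, an inhibitor of caspases, went from 4.68 and 3.09 TPM to 31.1 and 43.6 TPM and rose in the fit with 1 spread. Ggnbp2, from 5.71 and 10.7 TPM to 17.1 and 42.6 TPM, and Ehbp1, from 29.3 and 12.6 TPM to 3.46 and 39.2 TPM, did not pass (limma adjusted p = 0.106 and 0.636). Ggnbp2 passed as higher without 2-cell library 1 (limma adjusted p = 0.0412) and Ehbp1 as lower without 2-cell library 2 (limma adjusted p = 0.0217).

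**Figure D3:**
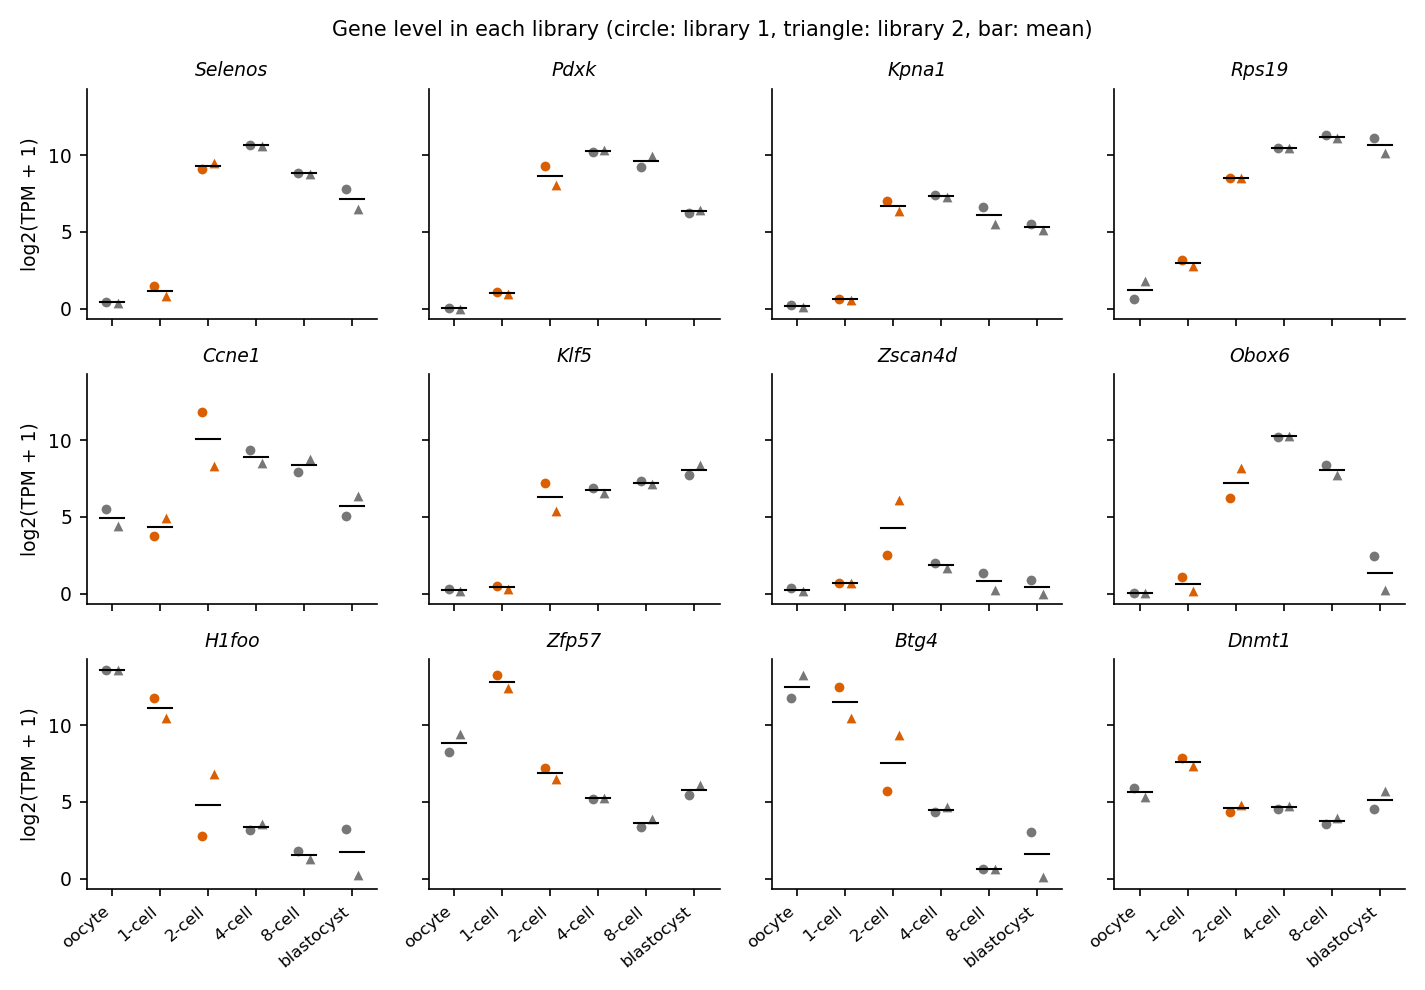
Levels of 12 named genes in the 12 libraries from oocyte to blastocyst, log2(TPM + 1), with circles for library 1, triangles for library 2, bars for stage means and the 1-cell and 2-cell libraries in orange. Selenos, Pdxk, Kpna1 and Rps19 rise by similar amounts in both 2-cell libraries, Ccne1 and Klf5 more in library 1, and Zscan4d and Obox6 more in library 2. In the bottom row H1foo, Zfp57, Btg4 and Dnmt1 are lower at the 2-cell than at the 1-cell stage.

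The transcription machinery held calls in shares near those of all genes. Of 89 tested RNA polymerase II genes 21 rose and 4 fell, 9 and 2 in both fits (23.6% higher and 4.49% lower, against 26.1% and 6.20% of all genes), with 11 (without 1-cell library 2) to 18 (without 2-cell library 2) rises and 2 (without 1-cell library 2) to 10 (without 2-cell library 2) falls when a library was left out. The median was 0.68, which is 0.04 below that of all genes, and -0.04 after quantile normalization and -0.14 after median-ratio scaling. The balance changed with the scaling, with 15 higher and 10 lower after quantile normalization and 14 higher and 18 lower after median-ratio scaling. Med29, a Mediator subunit, went from 5.68 and 1.37 TPM to 669 and 322 TPM and rose by 6.87 ± 0.76 (limma adjusted p = 9.13e-05). Polr2h, a subunit common to the 3 nuclear RNA polymerases, went from 10.7 and 4.74 TPM to 304 and 218 TPM, and Hexim1, which holds the elongation factor P-TEFb inactive, from 1.05 and 0.0274 TPM to 16.9 and 49.1 TPM. These 3 rose in both fits and in each fit without a library. In the other direction, the Mediator subunit Med17 went from 176 and 196 TPM to 19.7 and 19.7 TPM and Taf9b from 76.7 and 109 TPM to 2.85 and 20.7 TPM, and both fell in both fits. The change of Taf9b was -3.34, and -2.09 without 2-cell library 1. Med30 and Med22 fell in the fit with 1 spread, Med30 from 1598 and 5571 TPM to 451 and 61.1 TPM. Med30 lost its call without 2-cell library 2 (limma adjusted p = 0.0701) and without 1-cell library 2 (limma adjusted p = 0.105). The TATA-binding protein gene Tbp, at 163 and 94.5 TPM and then 55.8 and 105 TPM, did not pass. After median-ratio scaling it passed as lower (limma adjusted p = 0.0476), and after quantile normalization it did not pass (limma adjusted p = 0.181).

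In nuclear transport, members of 1 family moved in opposite directions. Of 55 tested genes 14 rose and 6 fell, 8 and 2 of them in both fits (25.5% higher and 10.9% lower, against 26.1% and 6.20% of all genes), and 8 (without 1-cell library 2) to 17 (without 2-cell library 1) rose and 2 (without 1-cell library 1) to 6 (without 2-cell library 2) fell with a library left out. The excess of rises was absent under the other scalings, with 9 higher and 9 lower after quantile normalization and 12 higher and 12 lower after median-ratio scaling. The median was 0.77, which is 0.05 above that of all genes, and 0.00 after quantile normalization and -0.06 after median-ratio scaling. The importin alpha gene Kpna1 went from 0.562 and 0.452 TPM to 126 and 81.3 TPM and rose by 6.09 ± 0.66 (limma adjusted p = 9.13e-05). Kpna4 went from 0.224 and 0.448 TPM to 85.2 and 18.3 TPM. The oocyte importin Kpna7 went the other way, from 131 and 66.6 TPM to 1.67 and 26.4 TPM and 1.37 and 1.09 TPM at the 4-cell stage, a fall in the fit with 1 spread that was lost without 1-cell library 1 (0.137), 1-cell library 2 (0.0659) or 2-cell library 1 (0.162) (limma adjusted p in brackets). Kpna2 was high at both stages, at 688 and 436 TPM and then 161 and 342 TPM, and did not pass. Both of its 2-cell values lay below both 1-cell values. It passed as lower after median-ratio scaling (limma adjusted p = 0.0401) but not after quantile normalization (limma adjusted p = 0.289). Of the nuclear pore, Nup205 went up from 3.36 and 0.837 TPM to 93.5 and 61.6 TPM, while Nup37 went down from 288 and 679.5 TPM to 54.3 and 17.3 TPM and Nup88 from 359 and 263 TPM to 23.3 and 42.2 TPM, all in both fits. The exportin Xpo1 went from 4.82 and 6.51 TPM to 28.5 and 58.3 TPM and passed in the fit with 1 spread, but not without 1-cell library 1 (0.0921), 1-cell library 2 (0.0663) or 2-cell library 2 (0.0666) (limma adjusted p in brackets).

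For protein degradation and folding the shares that rose were again near that of all genes. Of 48 tested proteasome genes 14 rose, 7 in both fits, and none fell (29.2% higher and none lower, against 26.1% and 6.20% of all genes), with 5 (without 1-cell library 2) to 14 (without 1-cell library 1) rises when a library was left out. Falls appeared in other fits, in Psma2 and Psmf1 without 2-cell library 2, and the calls were 12 higher and 5 lower after quantile normalization and 9 higher and 6 lower after median-ratio scaling. The median of 0.72 was that of all genes to 2 decimals, and it was 0.17 after quantile normalization and -0.12 after median-ratio scaling. Psme1, a subunit of the PA28 activator, went from 0.440 and 0.0647 TPM to 31.0 and 27.0 TPM and rose by 4.60 ± 0.63 (limma adjusted p = 0.000224). Psmb10, an immunoproteasome subunit, went from 0.598 and 0.330 TPM to 8.02 and 102 TPM, mostly in library 2 (a rise of 4.39 with library 2 and 2.63 without it). The core subunit gene Psma1 was at 45.0 and 21.3 TPM and then 12.9 and 50.3 TPM and did not pass. Of 55 chaperone genes 13 rose, 10 in both fits, and Dnajb4 and Pfdn4 fell in both (23.6% higher and 3.64% lower, against 26.1% and 6.20% of all genes). The median was 0.69, which is 0.03 below that of all genes, and 0.07 after quantile normalization and -0.16 after median-ratio scaling, and the calls were 12 higher and 4 lower after quantile normalization and 11 higher and 6 lower after median-ratio scaling. Cct6a, a subunit of the TRiC chaperonin, went from 0.306 and 0.652 TPM to 49.8 and 54.0 TPM and rose by 5.17 ± 0.66 (limma adjusted p = 0.000163), but Cct2 of the same ring was at 21.2 and 15.3 TPM and then 18.7 and 56.1 TPM and did not pass. Hspa8, the constitutive HSP70, was at 65.5 and 31.7 TPM and then 76.8 and 106 TPM and did not pass (limma adjusted p = 0.387), with 2274 and 1724 TPM at the 4-cell stage. Pfdn4, of the prefoldin complex, went down from 679 and 408 TPM to 15.5 and 39.5 TPM.

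In energy metabolism the share of respiratory chain genes that rose was close to that of all genes. Of 81 oxidative phosphorylation genes, all tested, 25 rose and Ndufa10, Ndufab1, Sdha and Uqcrc2 fell, with 11 rises and no fall in both fits (30.9% higher and 4.94% lower, against 26.1% and 6.20% of all genes, and 13.6% and none in both fits, against 13.7% and 1.61%). The median change was 1.61, which is 0.89 above that of all genes, and 1.19 after quantile normalization and 0.83 after median-ratio scaling, and the calls were 17 higher and 6 lower after quantile normalization and 16 higher and 6 lower after median-ratio scaling. Leaving out a library gave 9 (without 1-cell library 2) to 29 (without 2-cell library 1) rises and 1 (without 1-cell library 1) to 3 (without 2-cell library 1) falls. With the limma adjusted p in brackets, Ndufa10 did not pass without 1-cell library 2 (0.0627) or 2-cell library 2 (0.0574), Ndufab1 without 1-cell library 1 (0.0755), 1-cell library 2 (0.203) or 2-cell library 2 (0.221) and Sdha without 1-cell library 1 (0.0803). Ndufc1 of complex I went from 8.46 and 2.56 TPM to 208 and 101 TPM, Uqcrc1 of complex III from 3.65 and 5.18 TPM to 267 and 54.4 TPM, and the ATP synthase gene Atp5j from 3.13 and 7.89 TPM to 211 and 99.1 TPM, and all 3 rose in both fits. Atp5b, the catalytic subunit of the same enzyme, was at 332 and 403 TPM and then 362 and 196 TPM and did not pass. Of 29 genes of glycolysis and pyruvate use 8 rose, of which Ldha, Mpc2 and Pgam2 did so in both fits, and Ldhb fell in both (27.6% higher and 3.45% lower, against 26.1% and 6.20% of all genes), and with a library left out 1 (without 1-cell library 2) to 10 (without 2-cell library 1) rose. Pgam2 did not pass without 1-cell library 2 (0.0565) (limma adjusted p in brackets). The median was 0.83, which is 0.11 above that of all genes, and -0.06 after quantile normalization and 0.11 after median-ratio scaling, and the calls were 3 higher and 4 lower after quantile normalization and 5 higher and 4 lower after median-ratio scaling. Ldhb, the lactate dehydrogenase subunit abundant in the egg, went from 5378 and 3081 TPM to 62.2 and 489 TPM and fell by 4.53 ± 0.99 (limma adjusted p = 0.00363). Ldha, the other subunit, went from 3.45 and 1.45 TPM to 16.3 and 46.5 TPM and Mpc2, of the mitochondrial pyruvate carrier, from 19.6 and 15.9 TPM to 260.2 and 312 TPM, and both rose in both fits, Ldha not without 1-cell library 2 (limma adjusted p = 0.0612).

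Among 45 cyclin and cell cycle genes 11 rose and 4 fell, 6 and 1 in both fits (24.4% higher and 8.89% lower, against 26.1% and 6.20% of all genes, and 13.3% and 2.22% in both fits, against 13.7% and 1.61%). These shares were near those of all genes. The median was 0.29, which is 0.43 below that of all genes, and -0.18 after quantile normalization and -0.56 after median-ratio scaling, and the calls were 8 higher and 6 lower after quantile normalization and 10 higher and 8 lower after median-ratio scaling. Ccne1, the cyclin that drives entry into S phase, was at 12.3 and 29.1 TPM before and 3709 and 312 TPM after cleavage and rose by 5.75 ± 1.03 (limma adjusted p = 0.000978). Cdc25c, a phosphatase that activates CDK1, went from 1.95 and 0.345 TPM to 20.9 and 101 TPM. Cdk1 went from 27.5 and 7.94 TPM to 83.6 and 229.7 TPM and rose in the fit with 1 spread, not without 2-cell library 2 (limma adjusted p = 0.0685) or 1-cell library 2 (limma adjusted p = 0.14). Chek1, the checkpoint kinase, went down from 256 and 274 TPM to 5.55 and 53.4 TPM in both fits, though the call was lost without 2-cell library 1 (limma adjusted p = 0.0611) and without 1-cell library 2 (limma adjusted p = 0.0567). Ccnb2, Orc5 and Mcm4 were the other 3 that fell. With the limma adjusted p in brackets, Ccnb2 did not pass without 1-cell library 1 (0.11), 1-cell library 2 (0.0603) or 2-cell library 2 (0.11) and Orc5 without 1-cell library 1 (0.0856), 1-cell library 2 (0.0708) or 2-cell library 1 (0.151). With a library left out 0 (without 1-cell library 2) to 7 (without 2-cell library 2) genes of the list fell. Ccnb1, at 1079.5 and 874 TPM and then 101 and 389.9 TPM, and Ccna2, at 251 and 1072 TPM and then 2077 and 164 TPM, did not pass, and Ccnb1 did so as lower without 2-cell library 2 (limma adjusted p = 0.0168).

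Chromatin regulators passed in both fits in nearly the same shares as all genes. Of 59 tested genes of DNA methylation, histone variants and histone modification 19 rose and 6 fell, 8 and 1 in both fits (32.2% higher and 10.2% lower, against 26.1% and 6.20% of all genes, and 13.6% and 1.69% in both fits, against 13.7% and 1.61%). The median was 1.00, which is 0.28 above that of all genes, and 0.23 after quantile normalization and 0.20 after median-ratio scaling, and the calls were 14 higher and 6 lower after quantile normalization and 12 higher and 9 lower after median-ratio scaling. With a library left out 9 (without 1-cell library 2) to 20 (without 2-cell library 2) rose and 2 (without 1-cell library 1) to 7 (without 2-cell library 2) fell. Kdm5b and Kdm5a, demethylases of trimethylated lysine 4 of histone H3, went from 0.920 and 0.761 TPM to 399 and 77.1 TPM and from 1.38 and 0.959 TPM to 38.3 and 93.9 TPM. They rose by 6.59 ± 0.85 and 4.82 ± 0.68 (limma adjusted p = 0.000179 and 0.000256), library 1 being higher for the former and library 2 for the latter. Suv39h1, which methylates lysine 9 of histone H3, went from 0.360 and 0.967 TPM to 49.9 and 17.0 TPM and rose in both fits.

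The falls included genes that maintain or oxidize DNA methylation. Dnmt1, the maintenance methyltransferase, was at 231 and 159.6 TPM and then 19.7 and 27.5 TPM and fell by 2.99 ± 0.67 in the fit with 1 spread (limma adjusted p = 0.00441, against 0.0507 with the spread weighted by stage). Its partner Uhrf1 went from 463 and 206 TPM to 14.5 and 64.1 TPM and Tet3, the dioxygenase that oxidizes methylcytosine in the zygote, from 523 and 170.1 TPM to 8.84 and 116 TPM. Both fell in the fit with 1 spread and lost the call without 2-cell library 1 (limma adjusted p = 0.174 and 0.24) and without 1-cell library 1 (limma adjusted p = 0.194 and 0.199), and Uhrf1 also without 1-cell library 2 (limma adjusted p = 0.0801). Dnmt3a, at 67.3 and 14.8 TPM and then 6.76 and 33.4 TPM, did not pass. The others that fell were H3f3b, Asf1b and Zfp57.

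The 161 genes that fell in both fits had been abundant. Their median level was 73.8 and 88.6 TPM in the oocyte, 168 and 159 TPM in the 1-cell and 3.55 and 17.2 TPM in the 2-cell libraries, where library 2 kept more of them than library 1. At the 4-cell stage it was 3.71 and 3.47 TPM. Both 4-cell libraries lay below both oocyte libraries in 153 of the 161 (95%), against 25.1% of all tested genes. This too is no independent check, because these libraries enter the filter and the spread of both fits. Among the long reads 83 of them (51.6%) had a transcript in the 1-cell pool and none in the 2-cell pool, against 15.4% of all tested genes. Of the 161 genes 142 were protein coding.

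Zfp57, a zinc finger protein that protects methylation at imprinted regions, was among the largest falls and had been lower in the oocyte than in the 1-cell embryo. It was at 300.5 and 691 TPM in the oocyte, 9859 and 5473 TPM in the 1-cell and 149 and 89.2 TPM in the 2-cell libraries and fell by 5.98 ± 0.73 (limma adjusted p = 0.000121). H1foo, the linker histone of the oocyte, was at 12322 and 12737 TPM in the oocyte, 3542 and 1401 TPM at the 1-cell stage, 5.87 and 111 TPM at the 2-cell stage and 7.85 and 10.8 TPM at the 4-cell stage. Its fall from the 1-cell stage was by 6.33 ± 1.16 (limma adjusted p = 0.00121). Bcl2l10, a member of the BCL2 family that is abundant in oocytes, was at 16658 and 4955 TPM and then 84.0 and 252 TPM, with 10.6 and 9.23 TPM at the 4-cell stage.

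D6Ertd527e, a gene without an assigned role here, went from 8913 and 3390.5 TPM to 20.3 and 165 TPM and fell by 6.53 ± 0.99 (limma adjusted p = 0.000364). Rgs2, which damps signalling through G proteins, went from 610.1 and 256 TPM to 0.682 and 14.7 TPM and Rraga, a GTPase that links amino acids to mTORC1, from 1626 and 1531 TPM to 17.9 and 35.6 TPM. Rraga was nearly as low in one 2-cell library as in the other, while Rgs2, H1foo and D6Ertd527e were lower in library 1. Oog4, Rfpl4 and Obox2 belong to gene families of the oocyte, and of these Oog4 went from 270.3 and 663 TPM to 2.25 and 16.5 TPM. A430033K04Rik, E330021D16Rik, E330034G19Rik and Lurap1l, with 179.6 and 879.6 TPM before and 13.7 and 7.01 TPM after cleavage, complete the 15 together with Pabpn1l and Zar1. All 15 fell in each of the 4 fits that left out a library. Without 2-cell library 1 the changes of Rfpl4 and E330034G19Rik were -3.78 and -3.46, against -5.77 and -5.32 with it. Reads of Zar1 can be shared with the copy Gm42668.

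Genes of oocyte growth and of the zona pellucida went down as a list. Of 52 tested 24 fell, 14 in both fits, none rose and 28 did not pass (none higher and 46.2% lower, against 26.1% and 6.20% of all genes). The median change was -2.37, which is 3.09 below that of all genes, and -2.83 after quantile normalization and -3.22 after median-ratio scaling. Their summed level was 84957 and 35257 TPM at the 1-cell, 4091 and 25806 TPM at the 2-cell and 9610 and 11381 TPM at the 4-cell stage, so that 2-cell library 2 held more than 6 times the sum of library 1. Without 2-cell library 1, 13 of the 52 passed as lower, without 2-cell library 2, 42 did, and without 1-cell library 2, 14 did. Gdf9, a growth factor by which the oocyte signals to its follicle, was at 1302 and 538 TPM and then 15.1 and 380 TPM and missed the threshold (limma adjusted p = 0.0622, and 0.00235 without 2-cell library 2). Oosp1, a secreted oocyte protein, was at 615 and 396 TPM and then 33.2 and 548 TPM and the zona glycoprotein gene Zp3 at 168 and 34.1 TPM and then 21.6 and 72.9 TPM. In both of these genes the stages overlapped, and neither passed (limma adjusted p = 0.188 and 0.435). Without 2-cell library 2 Oosp1 did (limma adjusted p = 0.00228).

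**Figure D4:**
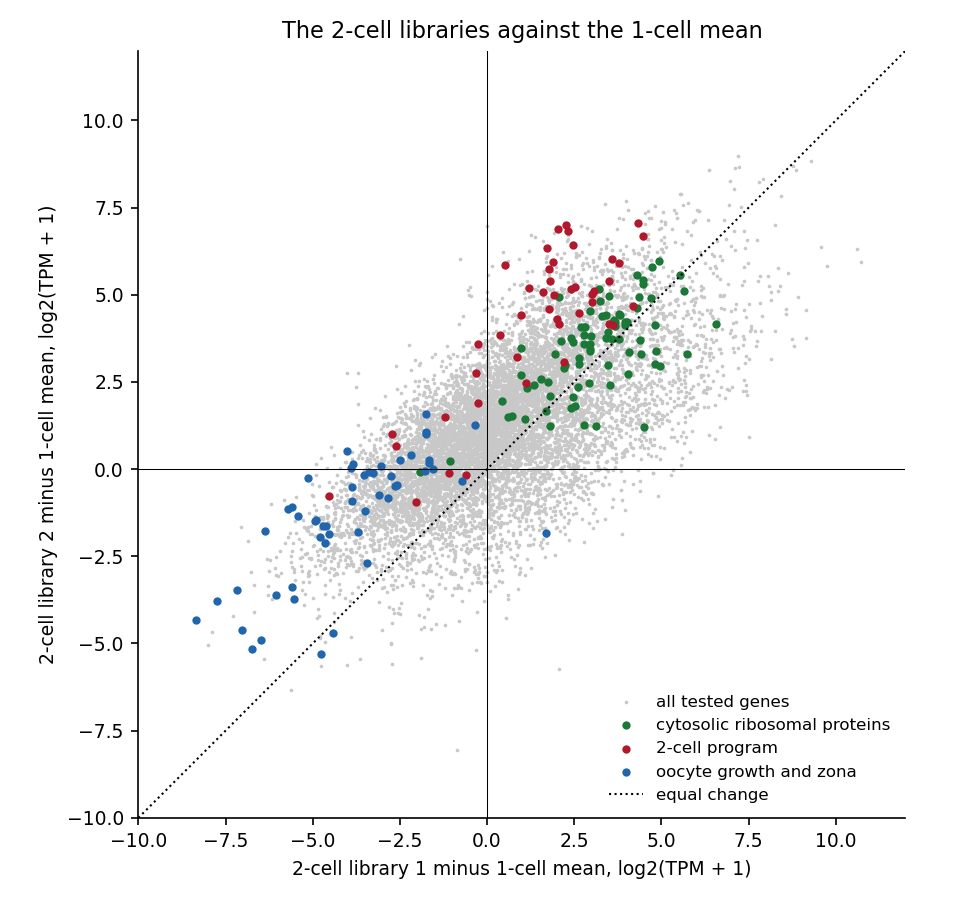
Each tested gene's log2(TPM + 1) in 2-cell library 1 (horizontal) and 2-cell library 2 (vertical), both minus the mean of the 1-cell libraries. The cytosolic ribosomal proteins lie along the line of equal change, the 2-cell program mostly above it, and the oocyte growth and zona genes mostly above it too, being lower in library 1 than in library 2.

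Of 27 tested genes of meiotic arrest and of the spindle checkpoint Fbxo43, Mad2l1 and Map2k1 fell and Rps6ka1 rose, none in both fits (3.7% higher and 11.1% lower, against 26.1% and 6.20% of all genes). The calls were 0 higher and 10 lower after quantile normalization and 0 higher and 10 lower after median-ratio scaling, and the median was -1.12, which is 1.84 below that of all genes, and -1.55 after quantile normalization and -1.94 after median-ratio scaling. Leaving out a library gave 0 (without 1-cell library 2) to 9 (without 2-cell library 2) falls. With the limma adjusted p in brackets, Mad2l1 did not pass without 1-cell library 1 (0.17), 1-cell library 2 (0.0776) or 2-cell library 1 (0.261), Map2k1 without 1-cell library 2 (0.29) or 2-cell library 2 (0.194) and Rps6ka1 without 1-cell library 1 (0.0762), 1-cell library 2 (0.138) or 2-cell library 1 (0.0694). Fbxo43, an inhibitor of the anaphase-promoting complex that holds the egg in metaphase, went from 102 and 102 TPM to 3.85 and 32.2 TPM and lost its call without 1-cell library 1 (0.0643), 1-cell library 2 (0.0726) or 2-cell library 1 (0.0884) (limma adjusted p in brackets). Mos, the kinase of the same arrest, was at 89.9 and 543 TPM in the oocyte and already at 8.99 and 2.43 TPM in the 1-cell libraries, with 0.521 and 3.78 TPM at the 2-cell stage. Wee2, which inhibits CDK1 in the oocyte, was at 173 and 301 TPM and then 18.1 and 179 TPM, so that 2-cell library 2 lay between the 1-cell libraries and library 1 below them. Neither passed (limma adjusted p = 0.345 and 0.104), and without 2-cell library 2 Wee2 did (limma adjusted p = 0.00135).

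Genes of RNA removal rose in a smaller share than all genes, and those that fell did so in the fit with 1 spread alone. Of 51 tested deadenylation and decay genes 9 rose and Btg4, Cnot7, Cnot3 and Dcp1a fell, with Btg1, Btg3, Tob1, Dis3 and Exosc5 rising in both fits and no fall in both (17.6% higher and 7.84% lower, against 26.1% and 6.20% of all genes). The balance changed with the scaling, with 6 higher and 6 lower after quantile normalization and 7 higher and 9 lower after median-ratio scaling. Leaving out a library, 5 (without 1-cell library 2) to 13 (without 2-cell library 1) rose and 1 (without 1-cell library 1) to 5 (without 2-cell library 2) fell. Dcp1a did not pass without 1-cell library 1 (0.21) or 2-cell library 1 (0.215) (limma adjusted p in brackets), and the rises of Dis3 and Exosc5, 4.85 and 4.34, were 3.20 and 2.85 without 2-cell library 1. The median was 0.57, which is 0.15 below that of all genes, and -0.04 after quantile normalization and -0.24 after median-ratio scaling. Btg4, the adaptor that brings the CCR4-NOT deadenylase to maternal mRNA, was at 5865 and 1441 TPM and then 51.8 and 671 TPM, with 19.4 and 23.9 TPM at the 4-cell stage. It fell by 3.95 ± 1.18 (limma adjusted p = 0.02), though not without 2-cell library 1 (limma adjusted p = 0.168) or 1-cell library 1 (limma adjusted p = 0.171). Its relative Btg1 went from 1.76 and 3.34 TPM to 143 and 98.8 TPM and rose by 5.11 ± 0.72 (limma adjusted p = 0.000263). Tob1, another member of that family, went from 2.23 and 2.28 TPM to 57.4 and 51.0 TPM, and was at 6.83 and 4.73 TPM at the 4-cell stage.

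Within the CCR4-NOT complex, the scaffold gene Cnot1 went from 2.08 and 1.90 TPM to 11.7 and 46.4 TPM and rose in the fit with 1 spread, not without 1-cell library 1 (0.0649), 1-cell library 2 (0.0805) or 2-cell library 2 (0.0782) (limma adjusted p in brackets). The catalytic subunit Cnot7 went from 772 and 1207 TPM to 97.7 and 416 TPM and Cnot3 from 395 and 183 TPM to 33.6 and 24.9 TPM. Cnot3 fell in each fit without a library, whereas Cnot7 did not without 1-cell library 1 (0.0859), 1-cell library 2 (0.195) or 2-cell library 1 (0.28) (limma adjusted p in brackets). Cnot6l, the catalytic subunit that acts on maternal mRNA, was at 37.5 and 72.7 TPM and then 11.7 and 81.0 TPM and did not pass (limma adjusted p = 0.591).

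Poly(A) binding proteins of the oocyte and of other cells moved in opposite directions. Of 47 tested genes of mRNA storage and polyadenylation 11 rose and 6 fell, with Pabpc1, Pabpn1, Nudt21, Igf2bp1 and Larp1 rising and Zar1 and Dazl falling in both fits (23.4% higher and 12.8% lower, against 26.1% and 6.20% of all genes). The median was 0.75, which is 0.03 above that of all genes, and 0.19 after quantile normalization and -0.09 after median-ratio scaling, and the calls were 7 higher and 9 lower after quantile normalization and 7 higher and 10 lower after median-ratio scaling. With a library left out 6 (without 1-cell library 2) to 13 (without 2-cell library 2) rose and 3 (without 1-cell library 1) to 5 (without 1-cell library 2 or 2-cell library 1 or 2-cell library 2) fell. Pabpc1, the cytoplasmic poly(A) binding protein of somatic cells, went from 1.67 and 3.33 TPM to 236 and 239.9 TPM and rose by 6.14 ± 0.70 (limma adjusted p = 0.000101). Its germline paralog Pabpc1l went from 102 and 35.7 TPM to 2.22 and 18.8 TPM and fell in the fit with 1 spread (limma adjusted p = 0.0158, 0.102 without 2-cell library 1 and 0.142 without 1-cell library 1). A second pair moved the same way. Pabpn1 went from 10.7 and 23.1 TPM to 92.2 and 475 TPM. Pabpn1l, named for its likeness to Pabpn1, fell by 5.68 ± 0.79, from 488 and 158 TPM to 2.12 and 8.44 TPM (limma adjusted p = 0.000244).

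Zar1, which binds and stores maternal mRNA, went from 477 and 1534 TPM to 30.6 and 20.8 TPM and fell by 5.03 ± 0.85 (limma adjusted p = 0.000729), and Dazl, a germ cell translation factor, from 639 and 329 TPM to 8.55 and 43.0 TPM. Cpeb1, which controls cytoplasmic polyadenylation, went from 118 and 384 TPM to 58.7 and 20.2 TPM and Eif4e1b, the oocyte form of the cap-binding protein, from 219 and 86.1 TPM to 35.0 and 21.3 TPM. These last 2 fell in the fit with 1 spread and lost the call without 2-cell library 2 (limma adjusted p = 0.164 and 0.057), Cpeb1 also without 1-cell library 2 (limma adjusted p = 0.287) and Eif4e1b without 1-cell library 1 (limma adjusted p = 0.17). Stau2 also fell in that fit. Ybx2 and Lsm14b, of the stored ribonucleoprotein, were at 105 and 59.1 TPM and 55.1 and 18.9 TPM and then at 39.6 and 40.2 TPM and 11.2 and 70.5 TPM, and did not pass (limma adjusted p = 0.311 and 0.897).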

How the data were processed

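Pools of mouse embryos were profiled by short reads of Smart-seq2 cDNA, 2 libraries a stage, and by 1 long-read pool a stage. The authors merged the long-read transcripts mapped to mm10 (GMAP, cDNA_Cupcake, Cuffmerge) and deposited TPM of each short-read library over these transcripts, estimated with salmon. The submitters' processing notes also name GSNAP, STAR and Cufflinks. TPM keeps no read depth. The read totals that the study lists for the libraries, which are unequal within a stage, were not used here, so no error from counting is given.

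Here transcripts were assigned to GENCODE M21 genes by overlap of exons on the same strand, to the gene with the largest overlap, and TPM was summed by gene. Genes at 1 TPM or above in 2 or more of 12 libraries were fitted with limma 3.58.1 (R 4.3.3) on log2(TPM + 1), with stage as the only term and a trend in the spread, adjusted by Benjamini-Hochberg. A second fit weighted the libraries by stage. Scripts were tested on simulated data, on which the weighted fit made few false calls and the first fit more than its threshold allows. Groups came from the sample titles. The titles and the file names give the 8-cell libraries opposite replicate numbers, and the titles were followed. The 8-cell libraries enter the filter, the shared spread, the weights by stage, the alternative scalings and the correlations with sperm, and they are shown in figures. The sperm libraries were used for correlations only.

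The members, lists and tests were chosen with earlier results of these data known. Named are genes the study names (for the step, as isoforms or otherwise), the 15 largest rises and the 15 largest falls among genes that passed in both fits without overlap of the libraries, and of each of 19 lists and 4 marker lists the first 4 members and up to 3 of the largest rises and falls that passed. Members outside that rule that complete a small count were chosen after their values were seen. Near-identical copies were transcripts matched by blastn 2.17.0 at 95% identity over 80% of their length. Alternatives were a pseudocount of 0.1, no filter, a filter of 5 TPM, quantile normalization, median-ratio scaling, the 4 libraries alone, a replicate block, transcripts that overlap 1 gene or share an intron, and each library left out.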

Additional observations from a re-analysis of the deposited data

How the results depend on the processing

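The counts of 2607 higher and 620 lower genes moved by more than 1.5 times as follows. Quantile normalization gave 1591 higher and 1757 lower, and median-ratio scaling gave 1549 lower. The 4 libraries of the step alone gave 1012 and 72, and the spread weighted by stage gave 1370 and 161. Leaving out a library gave 1362 to 3225 higher and 231 to 1375 lower. Quantile normalization with the weighted spread, added after seeing the data, gave 805 higher. The cause was not tested. The other settings stayed within 1.5 times. The labels do not say whether equal replicate numbers mark the same batch. Across genes the differences between replicates correlated at -0.33 for the 1-cell and 2-cell stages. Over all pairs of stages this ran from -0.55 (2-cell and blastocyst) to 0.48 (8-cell and blastocyst). Such correlations cannot tell whether the libraries are paired. With a replicate block 2376 genes were higher and 518 lower. Of 204 named genes none reversed a called direction. Calls were gained by 7 named genes after quantile normalization and by 10 after median-ratio scaling. The number that kept their side of the threshold was 179 after quantile normalization, 186 after median-ratio scaling, 148 with 4 libraries, 160 with the weighted spread, 196 with the block and 162 to 182 without a library. The 2 libraries a stage limit every value, and TPM holds no depth.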

Other observations

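Some of the largest falls were followed by higher levels in the blastocyst, where placental and inner cells are formed. Lurap1l was at 0.922 and 0.427 TPM in the 4-cell and 52.8 and 164 TPM in the blastocyst libraries, Rraga at 9.78 and 10.6 TPM and 50.3 and 119.7 TPM, and Zfp57 at 36.2 and 37.4 TPM and 43.0 and 69.0 TPM. For each of these genes both blastocyst libraries lay above both 4-cell libraries, and the step was not tested. Among the largest rises, Rpp25 and Gm49575 stood below their 2-cell levels, at 62.6 and 41.1 TPM and 74.2 and 75.2 TPM at the 4-cell stage, and Tssk6 went from 137 and 3.92 TPM to 1.10 and 1.13 TPM. These genes were picked after their values were seen.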
